A study of Bos taurus with 35 samples.

Results

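The genes described here were low in the subcutaneous fat of Hanwoo cattle relative to both other fat depots of the study, omental and intramuscular fat. They were chosen by measured values, namely the median level per tissue in CPM (a gene's reads scaled to a fixed total of reads on genes) after TMM scaling, which evens out differences in composition between libraries. A gene was taken when its medians in omental fat (O) and intramuscular fat (I) were each at least 3 CPM, each at least 2 times its median in subcutaneous fat (S), and less than 3-fold apart from each other. Of 24596 genes, 103 met these limits. After removal of the 3 whose identifiers stand in the study's primer list for quantitative PCR (there named ADAM23, ERBB3 and IGF2BP2), 100 genes were left and are called the members. O, S and I values chose the members, so they are given as a description without a test, and only muscle, single animals left out of the choice and the sex on the labels were compared.

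Poly(A) RNA was sequenced as paired ends from tissues of 9 Hanwoo (Korean native cattle, Bos taurus coreanae) to compare fat depots with each other. All animals were 30 months of age and shared a feeding barn. The labels name 3 animals as female, 3 as male and 3 as castrated male, whereas the study's methods speak of steers. S and I were dissected from the rib section and O from the lesser curvature of the abomasum, and muscle (M) was sequenced as well. Counts were read for 9 O, 9 S, 8 I and 8 M libraries. I of replicate 9 was not analysed here, and the labels name no muscle sample of replicate 7. Libraries with the same replicate number are labelled as the same animal, so 8 animals had all 3 fats by their labels.

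Fat depots are built of adipocytes together with stromal, vascular, immune and nerve cells, and each depot has its own developmental origin, blood supply and neighbouring tissue. Subcutaneous fat lies under the skin, omental fat lies in a fold of peritoneum attached to the stomach and has a mesothelial surface, and intramuscular fat, the marbling of beef, lies between muscle fibres. A transcript that is scarce in S but not in O and I can be scarce per cell, or can belong to a cell type of which S holds fewer, and in RNA from whole tissue fewer cells of a type and less RNA per cell cannot be told apart.

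Gene counts ranged from 3726376 to 7184022 per library. The values of 2 muscle libraries are set apart in what follows. Muscle replicate 4 is labelled female, but 6 genes that had counts in every male and castrated male fat library and hardly any in female ones summed to 210.5 CPM in it, against 0 to 0.45 CPM in female fat and 0.416 CPM in the other female muscle library. Muscle replicate 8 had the lowest median correlation with the other muscle libraries across genes (0.919, others 0.94 to 0.968) and the highest with fat (0.711, others 0.636 to 0.676). For 6 genes at least 50-fold higher in every fat than in M, its median was 1.25% of the lowest fat (others 0.5% to 6.85%, the highest in replicate 2). These genes were chosen by their M median over all muscle libraries, replicate 8 included. The choice favours low values in M, so nothing is read from this. FASN of muscle replicate 8, 59 CPM, was within the range of the other muscle libraries (49.2 to 123 CPM). Its CD163, a macrophage receptor, was the highest at 33.4 CPM (others 4.04 to 27.2). The tissue labels fitted the marker genes that could be read by name: FASN (fatty acid synthase) had medians of 2388, 4175 and 599.3 CPM in O, S and I and 64.72 CPM in M, and TPM2 (a tropomyosin of muscle fibres) had 156.2, 168.2, 1454 and 30480 CPM in the same order.

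The deposited tables carry Ensembl gene identifiers, and the tables used here did not pair the members' identifiers with gene names. The members are therefore described by rank and value, with 4 of them given by identifier, and their functions and positions are not reported. CPM is not divided by gene length, so a high rank by CPM is a large share of reads and not a large number of transcripts.

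The module was mostly moderate in strength and low in level. The median of S over the members was 2.35 CPM (range 0.118 to 66.7), against 10.3 CPM in O (3.11 to 716) and 12.5 CPM in I (3.05 to 377). The ratio of the lower of the O and I medians to the S median had a median of 3.13 over the members, with quartiles of 2.23 and 3.93. It reached 3 in 52 members, 4 in 25, 5 in 19 and 10 in 8. The lower of both fats exceeded 10 CPM in 47 members, 50 CPM in 6 and 100 CPM in 4. O was the higher of both fats in 30 members and I in all others, with median ratios to S of 4.21 for I and 3.24 for O.

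**Figure D1:**
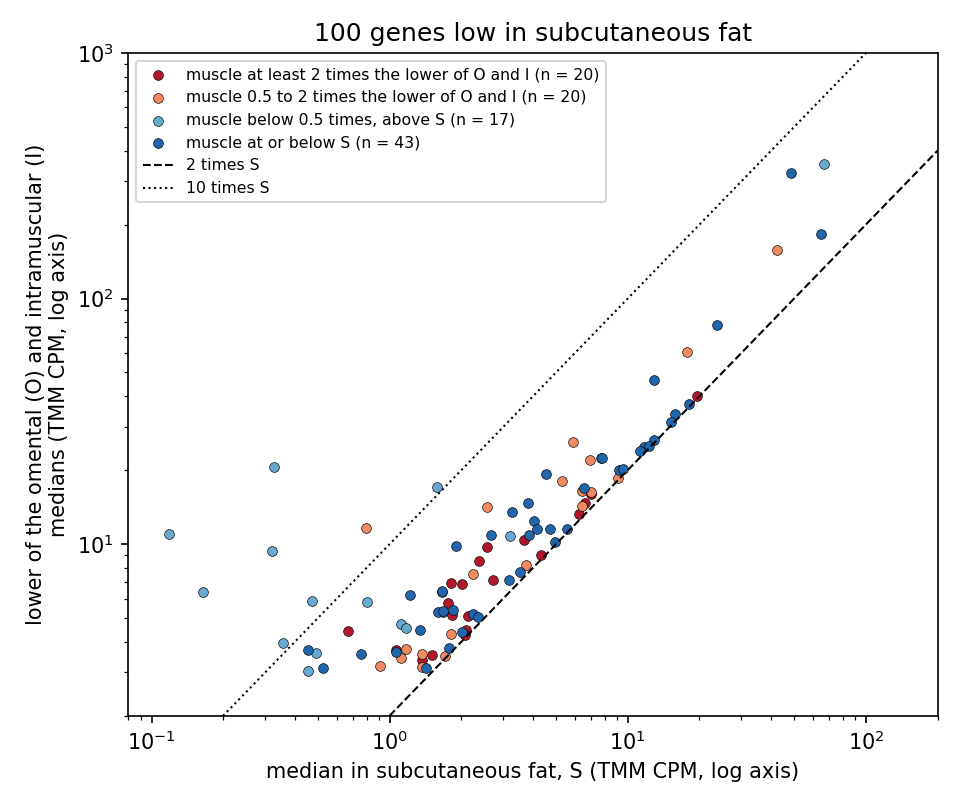
Each of the 100 points is a member, plotted by its median in subcutaneous fat (x axis, CPM, log scale) and the lower of its medians in omental and intramuscular fat (y axis, CPM, log scale), coloured by its level in muscle. Points crowd just above the dashed line at 2 times S, and 8 reach the dotted line at 10 times S, all of them with an S median below 2 CPM.

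Many members lay close to the limit that chose them. There were 23 members with a ratio between 2 and 2.2, and 42 further genes met every other limit with a ratio between 1.8 and 2. The 3 members just inside had ratios of 2.031, 2.044 and 2.046, and the 3 genes just outside had 1.993, 1.991 and 1.990. In the opposite direction, 78 genes had S of at least 3 CPM and at least 2 times both other fats. The limit of 3-fold between O and I kept out 33 genes.

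Low counts in S stood behind the steepest ratios. The median S count was 16 reads over the members, it was below 10 reads in 25 of them, and 11 members had no read in at least 1 S library. The ratios of the members at the top are therefore given with 0.5 CPM added to both medians. This limits how far a count of 0, 1 or 2 reads sets the size, but the size then depends on the offset.

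With the offset of 0.5 CPM the steepest member was ENSBTAG00000000836. Its lowest, median and highest values were 3.19, 26.6 and 65.5 CPM in O and 3.81, 20.5 and 73.5 CPM in I. In S they were 0, 0.327 and 9.58 CPM. The S values rest on 0 to 64 reads with a median of 2. All S libraries but replicates 1 and 3 were below 1 CPM, and the high value of replicate 1 overlapped the lower libraries of O and I. Within each of the 8 animals S was nevertheless at most 0.5 times both other fats. The log2 ratio was 4.67 with the offset of 0.5 CPM and 5.59 with an offset of 0.1 CPM.

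The member at rank 2 had no read in 4 S libraries. Without an offset its ratio was 92.65, above the 62.63 of ENSBTAG00000000836, on a median S count of 1 read. Its S values were 0, 0.118 and 1.84 CPM, against 2.88, 25.4 and 106.4 CPM in O and 2.37, 10.96 and 33.0 CPM in I, again as lowest, median and highest. Here no S library reached any library of O or I. The member at rank 5 behaved alike at a log2 ratio of 3.23, with S between 0.607 and 1.2 CPM and the other fats between 4.51 and 33.8 CPM.

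The member with the largest read share showed the pattern at high depth, where a few reads cannot set it. It had 301.5, 716 and 1001 CPM in O, 312.8, 352.2 and 416.1 CPM in I, and 46.7, 66.7 and 160.6 CPM in S, on S counts of 292 to 1294 reads. The S libraries did not overlap the other fats, and all 8 animals had S at most 0.5 times both. Its log2 ratio was 2.39, which ranks 9 among the members.

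ENSBTAG00000011932, the next by read share, varied far more between animals. It had 64.0, 325.4 and 830.1 CPM in O, 130.9, 376.8 and 1284 CPM in I, and 23.8, 48.5 and 698.7 CPM in S. Replicate 3 held the highest S value and replicate 2 the next, at 234.3 CPM, and the same animals held the highest I values (1054 and 1284 CPM) and the highest O values (830.1 and 549.4 CPM). The groups overlapped, yet S was below both other fats in each of the 8 animals, and at most 0.5 times both in 6.

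**Figure D2:**
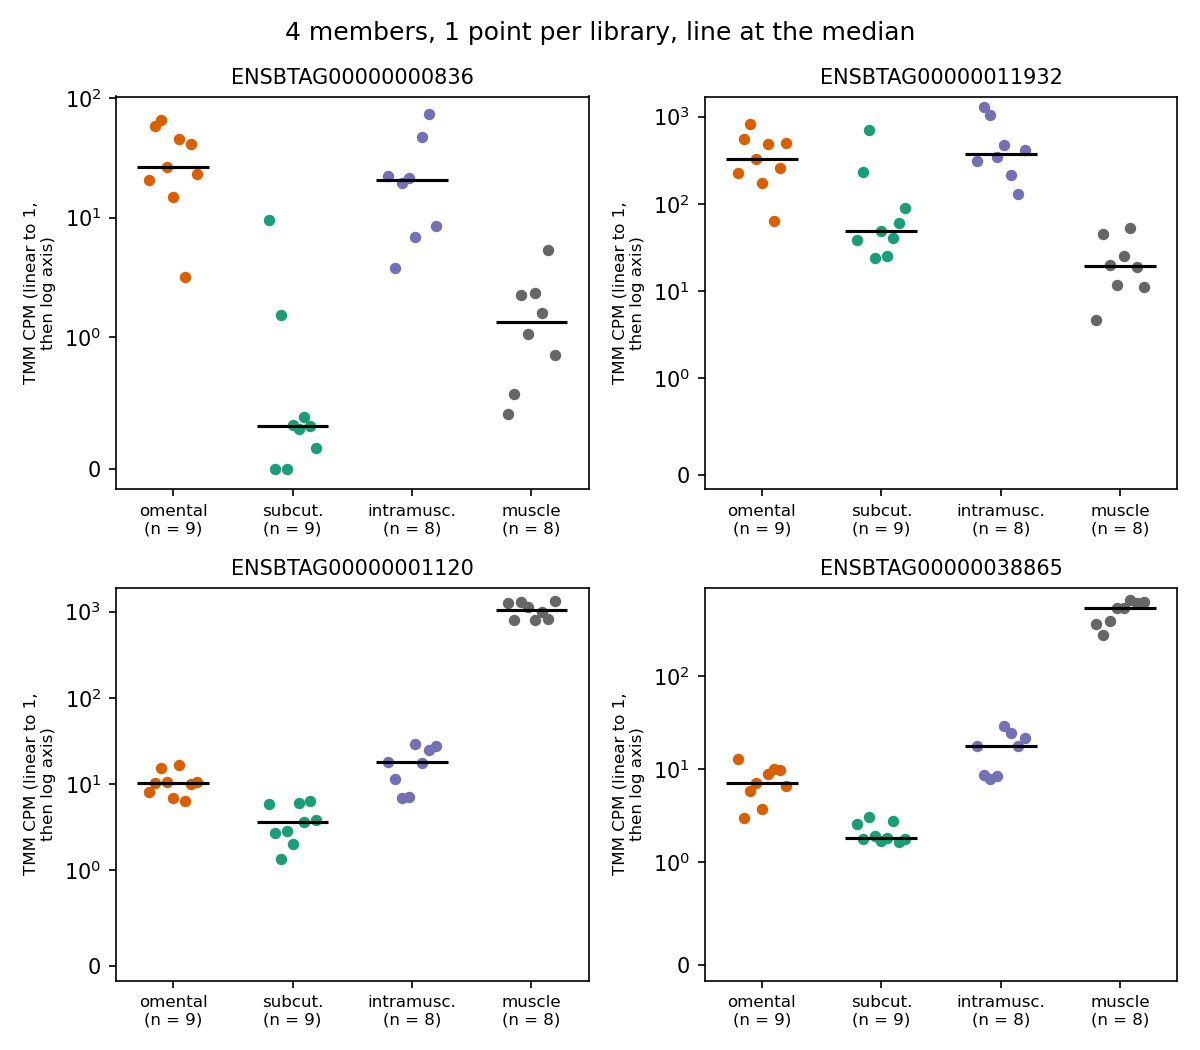
Points are the libraries of 4 members in omental, subcutaneous and intramuscular fat and muscle (y axis, CPM, linear up to 1 and logarithmic above), with a line at each median. The upper members are low in muscle and the lower members are high in muscle, and in all 4 the subcutaneous median is the lowest of the fats.

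The member at rank 6 stood out for a difference between animals that ran through every tissue, and it is singled out after its values were seen. Replicates 4, 5 and 8 held the highest 3 values in each of the 4 tissues. They had 63.1, 35.3 and 34.2 CPM in O, 29.8, 8.53 and 24.6 CPM in S, 140.7, 97.6 and 70.3 CPM in I, and 73.8, 60.7 and 178.6 CPM in M. The next highest library was at 22.5 CPM in O, 1.95 CPM in S, 25.6 CPM in I and 2.50 CPM in M. Muscle replicate 4, whose sex label the data contradict, was thus high for this member along with the fats of the animal it is labelled with. Replicates 5 and 8 were high as well, so these values do not tell which animal that library came from. S remained the lowest fat in all 8 animals.

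How many animals agreed differed from member to member. S was below both other fats in all 8 animals for 50 members, in 7 for 30, in 6 for 17, in 5 for 2 and in 4 for 1. Among all 11434 genes at 3 CPM or more in O and I, 1.71% had S below both in all 8 animals, but the members were chosen on these very values and nothing is read from the gap. Taken singly, O was above S in all 9 animals for 66 members and I was above S in all 8 for 71. For these counts, and for those of a 2-fold gap below, the choice favours agreement and shares over all genes are not given. A gap of at least 2-fold to both fats was rarer: it was found in all 8 animals for 10 members, in 7 for 16, in 6 for 17, in 5 for 18, in 4 for 18, in 3 for 13, in 2 for 7 and in 1 for 1. No S library reached any O or I library in 13 members, against 0.201% of the same 11434 genes. The choice on these values favours this gap too, and nothing is read from it.

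**Figure D3:**
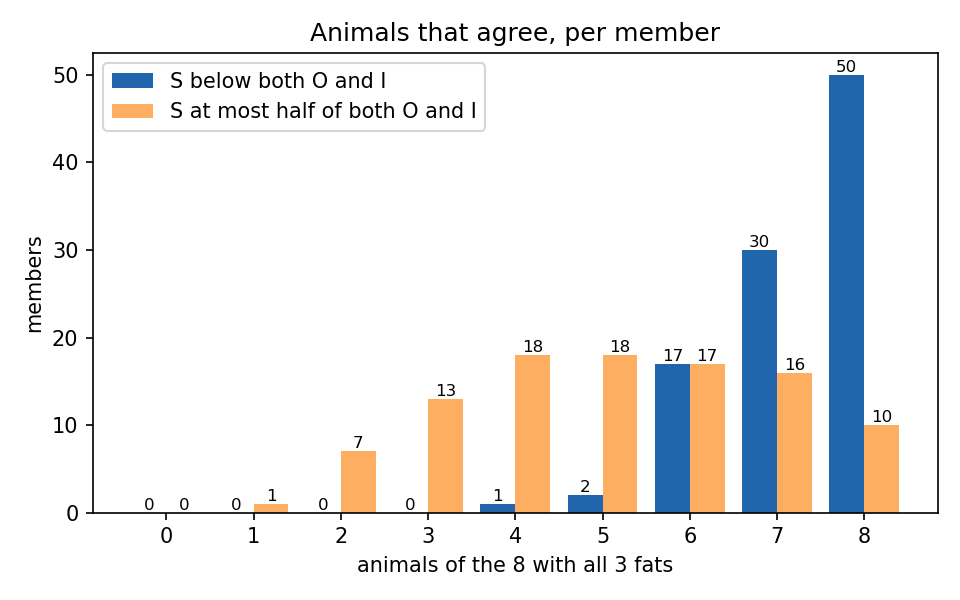
Bars count the 100 members by the number of animals, of the 8 with all 3 fats, in which subcutaneous fat was below both other fats (blue) or at most 0.5 times both (orange). The blue bars peak at 8 animals with 50 members, whereas the orange bars spread from 1 to 8 animals and count 10 members at 8.

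The 3 members that agreed in fewer than 6 animals were of different kinds. The member that agreed in 4 had 0.888 to 16.6 CPM in O, 0.8 to 5.61 CPM in S and 0.794 to 18.4 CPM in I, so that its fats overlapped over most of their range. Another, with agreement in 5 animals, was better expressed, with a median of 20.2 CPM in O, 9.54 CPM in S and 41.5 CPM in I, and S reaching 26.7 CPM in its highest library. The last, also with agreement in 5, was low throughout, with medians of 3.11, 1.42 and 4.93 CPM in O, S and I.

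Agreement also differed between animals. S was below both other fats for 80 to 97 of the 100 members, with the fewest in replicate 7 and the most in replicate 6. In replicate 7, 19 members were not below O and 4 not below I. In replicate 5 it was the reverse, with 15 not below I and 1 not below O, and in replicate 1 there were 10 not below O and 0 not below I. O of replicate 7 and I of replicate 5 were low for the members as a group: their mean log2 levels were 2.82 and 3.23, against 3.56 ± 0.362 (SD, n = 9) over O and 3.81 ± 0.277 (SD, n = 8) over I. In replicate 1, O was at 3.34, within the spread of O, and S was the highest of the S libraries at 2.22, against 1.94 ± 0.178 (SD, n = 9) over S. The S libraries of replicates 5 and 7 were at 1.79 and 1.84. O of replicate 5, at 3.28, was lower than O of replicate 1, with 1 member there not below O.

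The choice was repeated without each of the 8 animals in turn, and the animal left out was then looked at. The repeated choices held 97 to 113 genes. In the animal left out, S was below both other fats for 74.3% to 94.1% of them, with the lowest shares in replicates 5 and 7, and the SD over the 8 animals was 7.25 percentage points. Pooled over animals the share was 85.5%, or 715 of 836 gene and animal pairs, against 29.7% for all genes at 3 CPM or more. A gap of at least 2-fold to both fats was present in 56.2% of the pairs, against 2.37% for all genes. Genes in these counts are not independent of each other and the choices overlap, so no test was run. The scaling factors were taken from all libraries.

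**Figure D4:**
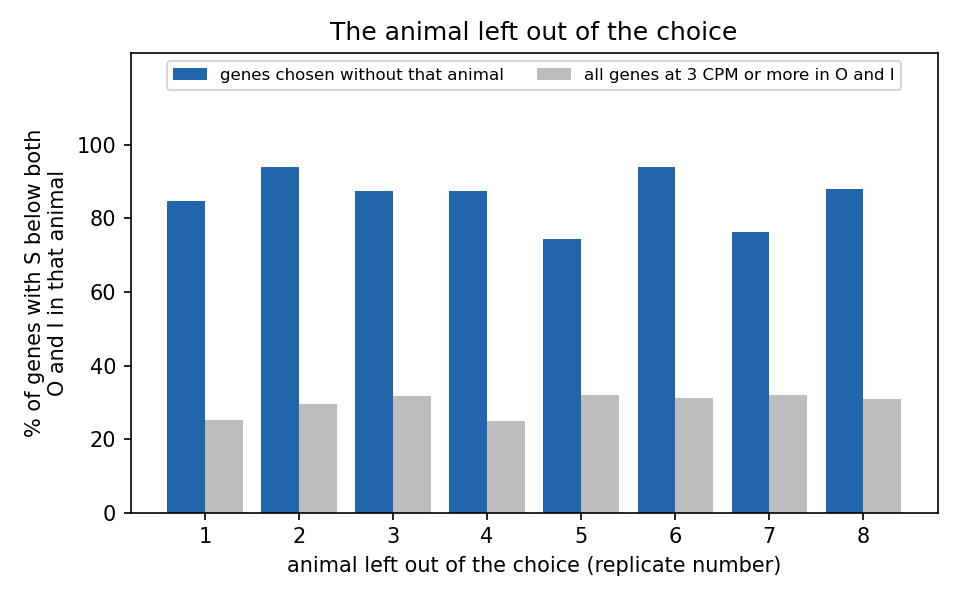
Bars give, for each animal left out (x axis), the percentage of genes with subcutaneous fat below both other fats in that animal (y axis), for genes chosen from the other animals (blue) and for all genes at 3 CPM or more in omental and intramuscular fat (grey). Blue bars lie between 74.3% and 94.1% and grey bars between 24.9% and 32.1%.

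There were 72 members that were chosen whichever 1 of the 9 animals was left out, and in 43 of these S was below both fats in all 8 animals. Requiring a 3-fold gap in place of 2-fold kept 52 of the 100 members, and a stricter limit cannot add genes.

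The members made up a small share of all reads on genes. Their summed level had a median of 0.0773% of CPM in S (range 0.0584 to 0.143), 0.296% in O (0.166 to 0.446) and 0.327% in I (0.295 to 0.401). No S library reached the lowest O or I library, as the choice favours. The highest S library was replicate 3, and ENSBTAG00000011932 alone contributed 698.7 CPM to it. In M the share was 0.422% (0.363 to 0.506), above all fats in median, and ENSBTAG00000001120 alone had a median of 1049 CPM there.

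Members varied widely between animals and rose and fell together only in part. The median SD of a member's log2 level between animals was 0.71 in O, 0.673 in S, 0.68 in I and 0.705 in M. Over all genes at 3 CPM or more it was 0.309, 0.324, 0.395 and 0.443, but those genes had a higher median level (27.3 CPM in O), and low counts widen the spread. The median Pearson correlation between pairs of members over libraries was 0.192 in O (9 libraries), 0.049 in S (9), 0.0931 in I (8) and 0.103 in M (8). A first principal component held 54.4% of the members' variance in O, 49.5% in I, 38% in M and 28.6% in S. Its extreme libraries were O of replicate 7, I of replicate 5 and M of replicate 8, and the part of depth or tissue composition in this was not tested. Correlations and component shares over all genes are not given beside these.

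Muscle divided the members. Taking the lower of the O and I medians as the reference, 20 members had M at 2 times it or more, 20 lay between 0.5 and 2 times, 17 were below 0.5 times it yet above S, and 43 were below 0.5 times it and at or below S. M was at or below 0.1 times the lower fat in 17 members and at 10 times or more in 8. Over all members the M median ranged from 0 to 1049 CPM with a median of 4.42 CPM. Thus 60 members were as scarce in M as the choice required of S. Shares of all genes within the same limits are not given, so the split is not read as particular to the members. Many genes differed between muscle and fat: of all genes tested, 29.9% were called higher and 33.5% lower in muscle than in O. Against I these shares were 30.0% and 29.8% (edgeR, false discovery rate 0.01).

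**Figure D5:**
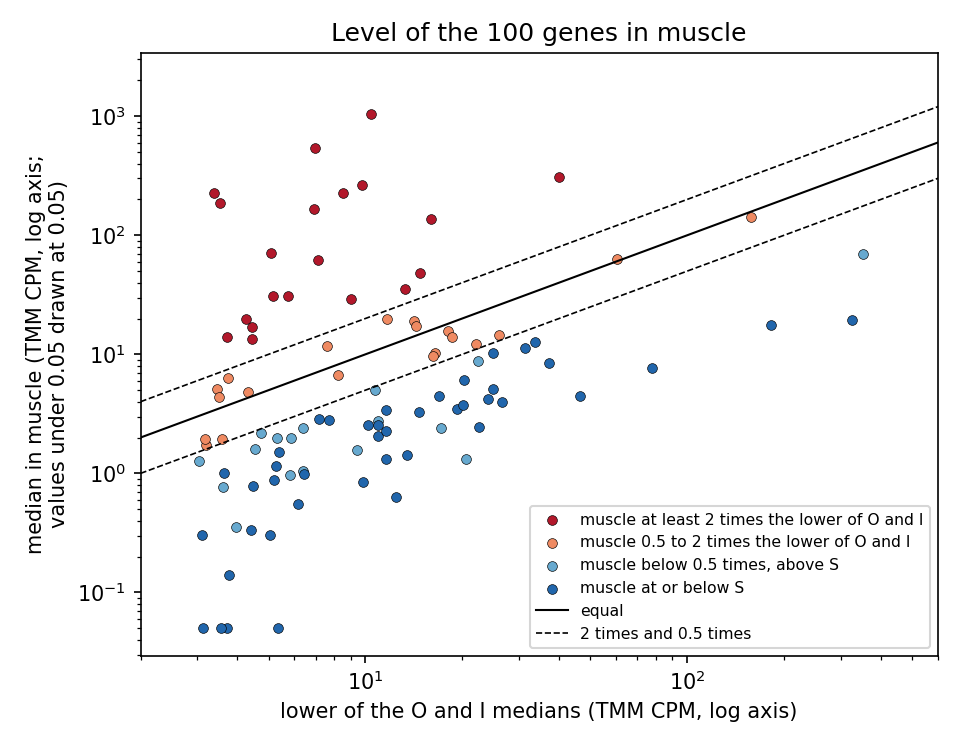
Each point is a member, plotted by the lower of its omental and intramuscular medians (x axis, CPM, log scale) and its median in muscle (y axis, CPM, log scale, values under 0.05 drawn at 0.05), with a solid line at equality and dashed lines at 2 and 0.5 times. Points spread over both sides, with 20 at or above the upper line and 60 below the lower line.

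The 20 members high in muscle were mostly low in all fats. Their median was 66.8 CPM in M (13.5 to 1049), 6.94 CPM in the lower fat (3.39 to 40.1) and 2.11 CPM in S (0.669 to 19.6). Their ratios of the lower fat to S had a median of 2.55, beside 2.83 for the 43 members with M at or below S and 3.13 for the 20 in between. The 17 members with M below 0.5 times the lower fat but above S had 7.28, and that grouping itself favours a wide gap between fat and S. S was below both fats in all 8 animals for 8 of the 20, and none of them had S free of overlap with O and I.

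ENSBTAG00000001120 was the highest in muscle relative to fat. It had 788.4, 1049 and 1337 CPM in M, against 6.37, 10.4 and 16.6 CPM in O, 1.37, 3.67 and 6.39 CPM in S and 6.82, 17.8 and 28.8 CPM in I (lowest, median and highest). Every M library was far above every fat library, and I overlapped O. The log2 fold change of M was 5.88 (SE 0.35) against I, with an adjusted p of 8.3e-11 in edgeR's quasi-likelihood test with Benjamini-Hochberg adjustment over all genes tested. Against O it was 6.58 (SE 0.24, edgeR adjusted p 1.5e-15) and against S 8.06 (SE 0.31, edgeR adjusted p 4.6e-15).

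ENSBTAG00000038865 followed with 277.1, 539.5 and 655.4 CPM in M, 2.93, 6.97 and 12.8 CPM in O, 1.64, 1.81 and 3.04 CPM in S, and 7.69, 17.6 and 28.8 CPM in I. M again stood clear of the fats, and S and I did not overlap. The log2 fold change of M was 4.88 (SE 0.33, edgeR adjusted p 2.8e-10) against I, 6.01 (SE 0.28, edgeR adjusted p 1.2e-13) against O and 7.84 (SE 0.23, edgeR adjusted p 1.5e-16) against S.

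Genes of muscle were also detected in the I libraries. Over 174 genes at least 100-fold higher in M than in O and S, with at least 50 CPM in M, the level in I had a median of 1.44% of that in M, with a 5th and 95th percentile over genes of 0.747% and 4.69%. O and S, which the choice of these genes kept low, had medians of 0.0446% and 0.0526%. By I library the median ranged from 0.239% in replicate 3 and 0.315% in replicate 4 to 2.58% in replicate 5. The I libraries followed this order only in part over the 20 members high in muscle. Replicate 3 was the lowest or next to lowest I library for 9 of them and replicate 4 for 8, but replicate 5 for 10. Replicate 5 was also low for the members as a group, at a mean log2 level of 3.23 against 3.81 over I. For ENSBTAG00000001120 and ENSBTAG00000038865 the lowest I libraries were replicates 3 and 4, and the highest was replicate 5, at 28.8 CPM for each. With 1.44% of the M median taken off the I median, 4 of the 20 members high in muscle were no longer at least 2-fold above S in I. For the other members M was under 2 times the lower fat, so this could take off little, and nothing is read from them. Larger shares, such as the 4.69% above, were not taken off. The part of muscle RNA in the I levels of these members was not tested. O was above S in all 9 animals for 15 of the 20, beside 66 of all 100 members. The choice on O and S favours this, and nothing is read from it.

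At the other end, 43 members had M at or below S. With 0.5 CPM added to both medians, ENSBTAG00000011932 was the lowest relative to the lower fat; without it, members with an M median of 0 were lower. It had 4.58, 19.2 and 52.5 CPM in M. All M libraries were below all O and I libraries, while the S libraries overlapped M. The log2 fold change of M was -4.47 (SE 0.53, edgeR adjusted p 4.3e-07) against I, -4.06 (SE 0.50, edgeR adjusted p 3.0e-07) against O and -2.60 (SE 0.68, edgeR adjusted p 0.0019) against S.

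ENSBTAG00000000836 was also scarce in muscle, with 0.416, 1.33 and 5.39 CPM in M. Its highest M library was replicate 8. M was lower by a log2 fold change of -4.26 (SE 0.53, edgeR adjusted p 4e-07) than O and of -3.78 (SE 0.60, edgeR adjusted p 1.4e-05) than I. Counts in S and M were too low for it to pass the count filter of their comparison. The member with the largest read share lay at the S level in muscle, with 49.2, 69.7 and 168.1 CPM in M, a log2 fold change of -0.07 against S (SE 0.27, edgeR adjusted p 0.82) and of -2.09 (SE 0.22, edgeR adjusted p 8.3e-08) against I.

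Muscle was then tested against each fat over all genes with edgeR's quasi-likelihood test at a false discovery rate of 0.01. The fat libraries had served the choice, which leans M towards higher against S and towards lower against O and I. A member scarce in both tissues of a comparison did not pass the count filter, so the members tested against S were those with reads in M or the better expressed ones. Against S, 69 members were tested, of which 31 were higher and 9 lower in muscle, where 30.5% and 32.2% of all genes tested were called in these directions. Their median log2 fold change was 0.64, against -0.04 over all genes tested. Without TMM scaling, which moved the median of all genes to -0.94, the split was 27 higher and 25 lower, and without muscle replicate 8 it was 31 and 15.

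Against O, 93 members were tested, with 21 higher and 54 lower in muscle, at 29.9% and 33.5% of all genes. Against I, 91 were tested, with 19 higher and 56 lower, at 30.0% and 29.8% of all genes. Median log2 fold changes were -1.52 against O and -1.89 against I, with -0.06 and -0.0014 over all genes. The 3 comparisons share the muscle libraries, so their counts are not independent of each other. Of the 100 members, 6 passed the count filter in none of them.

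Among genes that passed the count filter, the sex on the labels separated no member in edgeR at a false discovery rate of 0.01, in any tissue. Without the filter, edgeR called 1 member in M (adjusted p 0.000422) and none in the fats. Among all genes tested, 0.0372% were called in O, 0.0377% in S, 0.0146% in I and 0.00828% in M. The lowest adjusted p of a member in edgeR's quasi-likelihood F test over the 3 labels was 0.715 in O, 0.618 in S, 0.981 in I and 0.333 in M. At an unadjusted p under 0.05 there were 14 of 100 members in O, 11 of 83 tested in S, 13 of 100 in I and 10 of 73 in M, beside 3.88%, 7.76%, 4.08% and 10.8% of all genes. DESeq2's likelihood ratio test called 1 member in O (adjusted p 0.00743) and 0 in S, I and M. By that test 17 members in O, 16 in S, 17 in I and 16 in M had an unadjusted p under 0.05, beside 4.73%, 9.79%, 5.65% and 11.9% of all genes. Leaving out the muscle library whose label the data contradict gave 0 calls in M, with 10 of 84 members tested at an unadjusted p under 0.05, beside 8.12% of all genes.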

How the data were processed

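The deposited values are raw counts per Ensembl gene; the authors made them from poly(A) paired-end reads mapped to bosTau6 with TopHat2 2.0.2 and counted with HTSeq 0.5.3p3, after FastQC, as the study's methods and the submitters' processing notes name them. The strand setting of the counting was not given in the sources used here, so overlapping and antisense genes may share reads. The 5 lines of each table that name no gene held 63.3% to 71.1% of counts and were left out. Gene totals were 3726376 to 7184022, and a chi-square test of counts between same-tissue libraries gave at least 12.7 per degree of freedom in each of 128 pairs, so no pair agreed within sampling noise.

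Groups were taken from the labels. R 4.3.3 with edgeR 4.0.16 and limma 3.58.1 computed TMM CPM over 34 libraries and the quasi-likelihood tests (filterByExpr with a count minimum of 10, Benjamini-Hochberg, false discovery rate 0.01) on the libraries of each pair of tissues without a block, as the study's methods name none. DESeq2 1.42.0 was an alternative. Python 3.11.15 drew the plots. Other alternatives were the scaling, the filter, the thresholds, the animal as a block and each animal or muscle library left out. The pipeline was tested on simulated data. The members, lists and tests were chosen with earlier results of these data known. The naming rule took the members extreme in ratio, read share or muscle level, and since identifiers had no names in the tables used here, only 2 members low and 2 high in muscle are named. Lists of pathway and cell type marker genes could not be matched to identifiers and were not run. Libraries of the same number are labelled as the same animal by their titles. The correlation of their deviations from the group means had medians of 0.03 for M with S and 0.131 for M with O over 8 animals, and 0.252 for M with I over 7, against 0.0328, -0.0149 and -0.0209 for different animals.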

Additional observations from a re-analysis of the deposited data

Results flagged for a closer look

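In 5 of 25 groups of libraries examined, the highest library lay apart from the others by Dixon's criterion at the 95% level, which chance alone passes in about 1 group in 20. The summed level of the members in S was highest in replicate 3, at 0.143% of CPM, where the next was replicate 8 at 0.1%. ENSBTAG00000011932 was at 698.7 CPM in S of replicate 3, where the other S libraries had 23.8 to 234.3 CPM. ENSBTAG00000000836 was at 9.577 CPM in S of replicate 1, with the other S libraries at 0 to 1.52 CPM. In muscle, replicate 8 had a mean log2 level of 3.304 over the members, with the other M libraries at 2.61 to 2.84, and held ENSBTAG00000000836 at 5.392 CPM, with the others at 0.416 to 2.33 CPM. Over the members other than the 20 high in muscle, the mean log2 level of that library was 2.75, against 1.73 to 2.06 in the other M libraries. Its summed level, 0.407% of CPM, lay within their range. No cause was tested.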

How the results depend on the processing

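The number of members was 100 with the settings reported, 52 with a 3-fold threshold, and 74 to 132 under the other alternatives, 97 to 113 when an animal was left out. Members lower in muscle than in S numbered 9, but 25 without TMM, 16 without the count filter and 7 to 15 when a muscle library was left out, with the highest count without replicate 8. Members called for sex numbered 0, but 1 in O with DESeq2 and 1 in M without the count filter. With the animal as a replicate block, 31 members were higher and 9 lower in muscle than in S, 21 and 52 against O, and 19 and 51 against I, and the pairing changed no count by more than 1.5 times. In all, 116 recomputed counts and shares stayed within 1.5 times the reported count, or within the SD over animals for the shares of animals left out, and 6 did not. The 48 recomputed log2 ratios of the members given by identifier moved by less than the spread between animals. Using means in place of medians chose 109 genes, of which 79 were members. Low counts limit the ratios: 25 members had a median of under 10 reads in S and 43 in muscle.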
